A study of Homo sapiens with 4 samples.

Results

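Histone lysine demethylases remove methyl groups from lysines of the histone tails, and the m6A regions of 10 of their genes are described here (KDM2B, KDM3B, KDM4B, KDM5A, KDM5B, KDM6A, KDM6B, KDM7A, KDM8 and PHF2). A region was taken when its annotated transcript belonged to one of these genes, when the deposited annotation named the gene as the nearest start site, or when the interval overlapped the gene body on hg38. This gave 18 of the 9900 deposited regions, of which 16 overlapped the body of 9 of the genes. The genes were selected on the deposited coordinates and gene names of these same regions, so how often they hold a region is a description and was not tested.

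The regions came from m6A-seq, in which RNA carrying N6-methyladenosine, a methylated adenosine, is recovered with an antibody and sequenced beside untreated input RNA. All 4 libraries were of total RNA from wild-type (WT) H1, a long-established human embryonic stem cell line that stands for 1 genetic background, and 2 were input and 2 were pulled down with the m6A antibody. The deposited result is 1 intersected set of regions with no height or value per library, so no replicate error stands beside any value here, and library depth was not in the files. RNA levels were not in the files either, so the cell type could not be checked by expression, and the absence of a region does not show the absence of m6A. Among 8 marker genes of primed stem cells, SOX2, SALL4 and L1TD1 held a region in an exon, and POU5F1, DPPA4 and ZIC2 had none over the gene. LIN28B met 5 regions, none of them centred in an exon. NANOG met only the edge of a 100260 bp region centred in an intron of SLC2A14.

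m6A is laid down on RNA in the nucleus by the METTL3 and METTL14 methyltransferase complex and is read by YTH and IGF2BP proteins, which affect how long an mRNA persists and how well it is translated. In mRNA it is known to be frequent near stop codons, in 3' UTRs and in long internal exons. The demethylases described here share the JmjC domain, an iron- and 2-oxoglutarate-dependent oxygenase fold. In embryonic stem cells they act on marks of active promoters, of transcribed gene bodies, of heterochromatin and of Polycomb-silenced genes.

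The regions over these genes were mostly intronic by their centre. Of the 16 regions, 10 were centred in introns of 7 genes, 4 in coding exons of 3 genes and 2 in 3' UTRs of 2 genes. Exons thus held 6 of 16, close to the 38.3% that they held of 7411 regions in exons or introns of protein-coding genes. KDM2B, KDM3B, KDM5A, KDM6B and KDM8 held at least 1 region centred in an exon, 5 of the 10 genes, where 12.8% of 20056 protein-coding genes did. KDM5B, KDM6A, KDM7A and PHF2 held intronic regions alone. Any overlap with the gene body was seen in 9 of the 10 genes, against 30.2% of protein-coding genes, 4 genes met 2 or more regions, against 9.09%, and 3 genes met 3, where 3.16% met 3 or more. Because the genes were chosen for having a region, nothing is read from these differences.

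**Figure D1:**
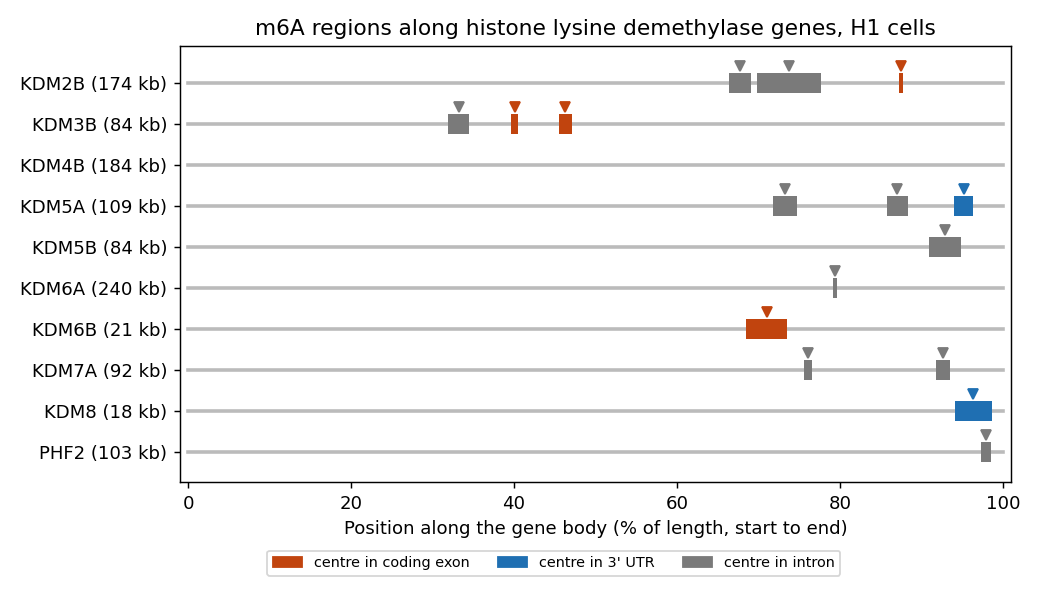
The 16 m6A regions drawn to scale along the bodies of 10 histone lysine demethylase genes, from gene start (0%) to gene end (100%); bars are regions, coloured by where the centre lies, and triangles mark the centres. Regions outside KDM3B are centred between 67.8 and 98.0% of the gene length, the KDM3B regions lie between 33.2 and 46.3%, and KDM4B has none.

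Gene length goes with how often a gene meets a region in this set. When protein-coding genes were divided by length into 5 groups of equal size, 50.1% of the longest group met a region, and 14.2% of the shortest did. Of the 10 genes, 8 were in the longest group, with a median length of 97.6 kb over all 10 against 24.1 kb for all protein-coding genes. KDM6B (20.6 kb) and KDM8 (18.2 kb) were the short ones, and both held their single region in an exon. The part of gene length in the counts over gene bodies was not tested. None of the 16 regions overlapped another gene of any kind in the gene table.

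KDM2B removes methyl groups from lysine 36 of histone H3 and brings the variant Polycomb complex PRC1.1 to CpG islands through its CXXC zinc finger, which binds unmethylated CpG. The gene runs toward lower coordinates at chr12:121408461-121582279. It carried the largest covered length, 19124 bp or 11.0% of its body, which was 45.4% of the 42101 bp covered over all 10 genes. Most of this came from a pair of regions in intron 12 of 22. The upstream one, at chr12:121462135-121466814, was 4680 bp wide, and the other, at chr12:121447356-121460837, was 13482 bp wide, with 1297 bp between them. The third, at chr12:121429678-121430639, spanned 962 bp and was centred in exon 23 of 23 of the annotated transcript. The gene boundary in the table lay a further 21217 bp downstream of the region, and where the other KDM2B transcripts end was not analysed here.

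The 4680 bp KDM2B region began just downstream of an internal start site. RefSeq lists 4 start windows for KDM2B (250 bases before to 50 after a start, GRCh38.p14). Of these, 3 lie within 2620 bp of the gene start and 1 lies 114901 bp into the gene. From that internal start to the nearest edge of the 4680 bp region was 564 bp, and from the other 3 starts it was between 112845 and 114209 bp. The 13482 bp region began 6541 bp past the internal start. The window of the internal start had a GC content of 84% with 46 CpG dinucleotides. That of the first start had 53% with 15, and the other upstream windows had 67.7% with 33 and 60.7% with 15. The 30 bases just before the internal start are shown because the 4680 bp region follows it closely, beside those before the first start, whose window was the lowest in GC. CpG pairs are in capitals. Both stretches are on the minus strand, at chr12:121581024-121581053 for the first start and chr12:121467379-121467408 for the internal one.
KDM2B first start: tgcaaaggctctggtctggctgtatttcct
KDM2B internal start: ctccccCGcCGgcccctcccCGccccctcc
The first stretch held 15 G or C bases and 0 CpG pairs, and the second 27 G or C bases and 3 CpG pairs. No region overlapped a start window of any of the 10 genes (14 windows in all), and transcription from the internal start was not measured here.

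**Figure D2:**
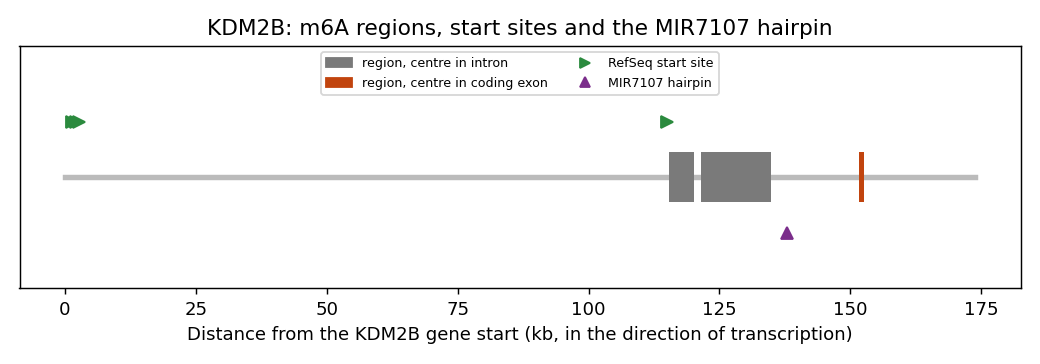
Regions over KDM2B in kb from the gene start, in the direction of transcription, with the starts of the 4 RefSeq start windows (green) and the MIR7107 hairpin (purple). The 4680 and 13482 bp regions lie between the internal start and the MIR7107 hairpin, and the 962 bp region lies downstream of both.

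All 3 KDM2B regions were named for the microRNA gene MIR7107 in the deposited annotation. Its start was nearer than the start of any KDM2B start window for the 13482 and 962 bp regions. The centre of the 4680 bp region, however, was 2904 bp from the internal KDM2B start and 20122 bp from MIR7107. The 80-base MIR7107 hairpin lies inside KDM2B on the same strand, at chr12:121444273-121444352, and the nearest region ended 3003 bp upstream of it. The region of PHF2 was likewise named for MIR548AU, another microRNA gene inside its host. The mature products that RefSeq lists are shown for these names, with the seed (bases 2 to 8) in capitals, and the seeds differ.
hsa-miR-7107-5p: uCGGCCUGgggaggaggaaggg
hsa-miR-548au-3p: uGGCAGUUacuuuugcaccag
Neither hairpin gene was overlapped by a region, and microRNA levels were not measured in these data.

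KDM8, also called JMJD5, was first described as a demethylase of lysine 36 of histone H3 and is also known as a protein hydroxylase. Its 1 region, at chr16:27220687-27221529 (843 bp), was centred in the 3' UTR, in exon 8 of 8. It ended 239 bp before the gene boundary (chr16:27203526-27221768, plus strand), the closest that any of the 16 regions came to a gene end. It was narrow, with 8.51% of all 3' UTR regions no wider.

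Among the demethylases of lysine 9 of histone H3, a mark of heterochromatin, KDM3B held 3 regions in the first part of the gene. The gene is at chr5:138352685-138437027, plus strand, and its regions stood out from those of the other 8 genes with regions by their position. The first was 2160 bp in intron 5 of 23 (chr5:138379637-138381796), the second 797 bp in exon 7 of 24 (chr5:138386093-138386889) and the third 1308 bp in exon 8 of 24 (chr5:138391080-138392387). Their centres lay 33.2, 40.1 and 46.3% along the gene, and the gaps between them were 4296 and 4190 bp. Both exonic regions were thus in adjacent internal coding exons of the same transcript. The 797 bp region was the narrowest of the 16, and only 2.35% of all coding-exon regions were as narrow or narrower.

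PHF2 and KDM7A are paralogs with a PHD finger that binds methylated lysine 4 of histone H3 beside the JmjC domain. PHF2, which acts on lysine 9, is at chr9:93576584-93679587, plus strand. Its region, at chr9:93676851-93678111 (1261 bp), was centred in intron 21 of 21 and ended 1476 bp before the gene end. KDM7A, which acts on lysines 9 and 27, is at chr7:140084746-140176983, minus strand. Its regions were 923 bp in intron 11 of 19 (chr7:140106372-140107294) and 1560 bp in intron 19 of 19 (chr7:140090709-140092268). The first was centred on an L1PA5 element and the second on an L2c element, both LINE repeats. In the last intron of each gene, then, 1 region lay within 6 kb of the gene end (1476 bp for PHF2 and 5963 bp for KDM7A).

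KDM4B, which removes trimethyl marks from lysine 9, had no region of its own. The gene is at chr19:4969113-5153598, plus strand, and the region that carried its name, at chr19:4960836-4961833 (998 bp), lay 7279 bp before it. That region was centred in the 3' UTR, in exon 16 of 16, of UHRF1, the neighbouring gene at chr19:4903080-4962154, which encodes a reader of hemimethylated DNA, and it ended 321 bp before the UHRF1 gene end. The annotation gave it the name KDM4B for the start of that gene, 7779 bp from the region's centre. The same happened once for PHF2, whose name was also given to a 3331 bp region in intron 7 of 9 of a FAM120A transcript, 52055 bp before the PHF2 gene. These 2 regions are counted among the 18 and not among the 16.

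KDM5A and KDM5B remove methyl groups from lysine 4 of histone H3, the mark of active promoters. KDM5A, at chr12:280057-389320 on the minus strand, held 3 regions of similar width toward its 3' end. They were 3205 bp in intron 22 of 27 (chr12:307629-310833, centred on a MER6 DNA transposon), 2860 bp in intron 26 of 27 (chr12:292776-295635) and 2510 bp in the 3' UTR, in exon 28 of 28 (chr12:284086-286595). Their centres were 73.3, 87.1 and 95.2% along the gene. The 3' UTR region was wide for its kind, as 94.0% of all 3' UTR regions were no wider. KDM5B, at chr1:202724495-202808421 on the minus strand, held 1 region of 3335 bp at chr1:202728776-202732110, which also was in intron 26 of 27 and ended 4281 bp before the gene end. The centres of these intron 26 regions were 87.1% (KDM5A) and 92.9% (KDM5B) along the gene. Intron numbers are those of the annotated transcripts, and whether the paralogs' introns correspond was not analysed here. A region of any width that is centred in an intron may also meet exons beside it.

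KDM6A and KDM6B remove methyl groups from lysine 27 of histone H3, the Polycomb mark, and differed in where their single region lay. KDM6A, the longest of the 10 genes (239.6 kb, chrX:44873188-45112779, plus strand), held 1 region of 1182 bp in intron 14 of 27 (chrX:45062718-45063899). That covered 0.493% of the gene, the lowest share among the 9 genes with a region. KDM6B, at chr17:7834217-7854796 on the plus strand, held 1 region of 1033 bp in exon 11 of 23 (chr17:7848320-7849352), covering 5.02% of the gene. Along their genes the centres lay at 79.4% in KDM6A and 71.0% in KDM6B.

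Regions in the second part of the gene predominated. The centres had a median position of 77.7% from start to end (range 33.2 to 98.0%, 16 regions), and 13 of the 16 lay past the middle. Over the genome, 61.8% of 6240 regions with a protein-coding host of known strand lay past the middle, with a median of 66.4%. For the intronic regions alone the median was likewise 77.7%, with 9 of 10 past the middle, where 54.4% of 3785 intronic regions were. No intronic region fell in the first 2 introns, which held 29.1% of 2563 intronic regions in transcripts with 10 or more introns. The last 2 introns held 4 of 10 (KDM5A, KDM5B, KDM7A and PHF2), against 22.8%. The exonic regions had a median of 79.3% (6 regions), against 82.7% of gene length for 2322 exonic regions genome-wide. Past the middle lay 4 of these 6, against 76.0% of the exonic regions genome-wide. Regions of 1 gene share their RNA, so the values over all regions rest on 9 genes, the intronic ones on 7 and the exonic ones on 5.

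Of the 4 coding-exon regions, 1 was in the last exon of its transcript (KDM2B), where 57.2% of 1753 coding-exon regions in protein-coding genes were. The other 3 were internal, in KDM3B and KDM6B. Among 10 KMT2 and SETD methyltransferase genes, which add histone lysine methyl groups, 9 held an exonic region, where 12.8% of all protein-coding genes did. Of their 12 coding-exon regions, 3 were in the last exon. Among 9 NSD, KMT5, EHMT and DOT1L genes, 6 held an exonic region and 2 of 4 coding-exon regions were in the last exon. The demethylase genes had 10 intronic regions of 16, the KMT2 and SETD genes 10 of 22 and the NSD group 8 of 17. Exonic regions were 6, 12 and 8 of these, where exons held 38.3% of regions in exons or introns of protein-coding genes. These are counts of a few regions and were not compared by a test. The gene lists were chosen with earlier results of these data known, so nothing is read from these shares or from differences between the groups.

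**Figure D3:**
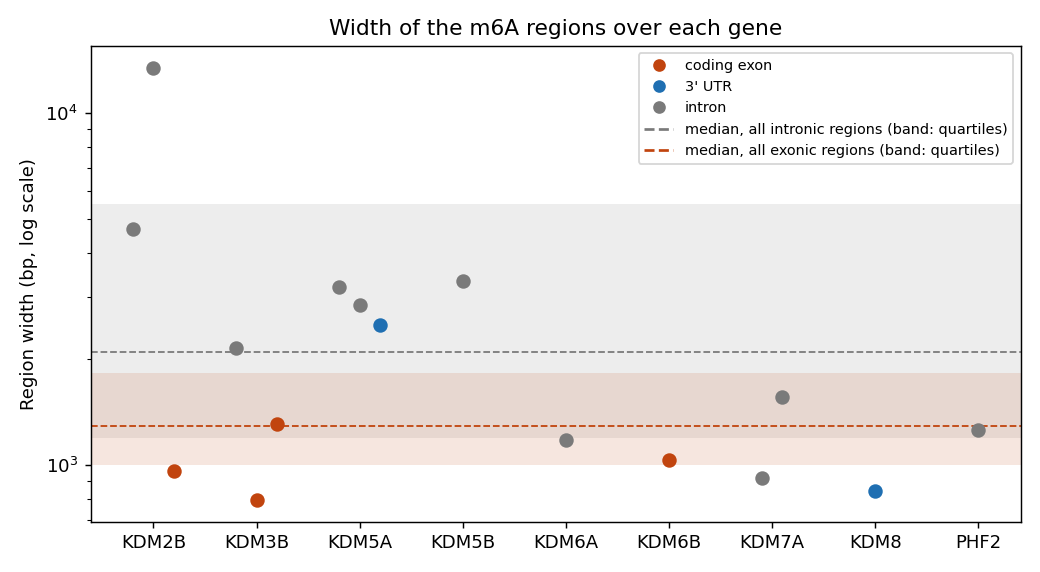
Width in bp (log axis) of each region over the 9 genes with a region, coloured by the feature at its centre; dashed lines and bands give the median and quartiles of all intronic (grey) and all exonic (red) regions. KDM2B has the 2 widest regions, 4680 and 13482 bp, and 4 of the 6 exonic regions lie between 797 and 1033 bp.

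Exonic regions were narrower than intronic ones here as in the whole set. The 6 exonic regions had a median width of 997.5 bp (range 797 to 2510 bp), where all 3061 exonic regions had a median of 1293 bp (quartiles 1000 and 1833 bp). The 10 intronic ones had a median of 2510 bp (range 923 to 13482 bp), where all 4967 had 2102 bp (quartiles 1193 and 5526 bp). Over the 16 regions the median was 1434 bp, against 1527 bp for all 9900. A repeat lay at the centre of 5 of the 10 intronic regions, in KDM2B (L2b), KDM3B (L1ME4a), KDM5A (MER6) and KDM7A (L1PA5 and L2c), against 54.7% of all intronic regions. No exonic region carried a repeat label. The repeat was read from the single detailed label that HOMER gave each region. Whether an exonic centre could carry a repeat label was not examined, so nothing is read from this absence.

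The deposited nearest start site, which is HOMER's choice, named another gene for 12 of the 16 regions, against 38.4% of 7810 regions with a protein-coding host. For 11 of the 12 that start was nearer than the start of any RefSeq start window of the host. The exception was the 4680 bp region of KDM2B. The windows do not hold every start: the KDM8 region lay 17582 bp from its window start and 17133 bp from the deposited KDM8 start. In 7 of the 9 genes with a region, every region bore another name, and KDM3B and KDM8 alone kept their own. KDM5A regions were named for SLC6A13, a neurotransmitter transporter gene, KDM5B for SYT2, KDM6A for DIPK2B, KDM6B for TMEM88 and KDM7A for PARP12. In KDM6B the centre was 6230 bp from the TMEM88 start and 8919 bp from the nearest start of a KDM6B start window. A search of the deposited annotation by gene name would thus return 6 regions for these genes, 2 of them outside the gene.

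Of 21 genes of the KDM1 to KDM8, PHF and JMJD1C group, 10 met a region over the gene body, where 30.2% of all protein-coding genes did. Of the 11 outside the described genes, KDM4D did, and since the described genes were taken out for having regions, nothing is read from that count. KDM4D, a testis-enriched relative of KDM4B, held a 1548 bp region in exon 3 of 3 at chr11:94997134-94998681, so it meets the rule for having a region although it is not among the 10 genes. The amine oxidases KDM1A and KDM1B, which work without a JmjC domain, met none. In the remaining families KDM2A, PHF8, KDM3A, JMJD1C, KDM4A, KDM4C, KDM4E and KDM5C met none. Longer than any described gene were JMJD1C with 354.7 kb and KDM4C with 454.8 kb. The regions closest to these genes were 4069 bp from KDM1A, in the 3' UTR of LUZP1, and 7362 bp from KDM3A.

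**Figure D4:**
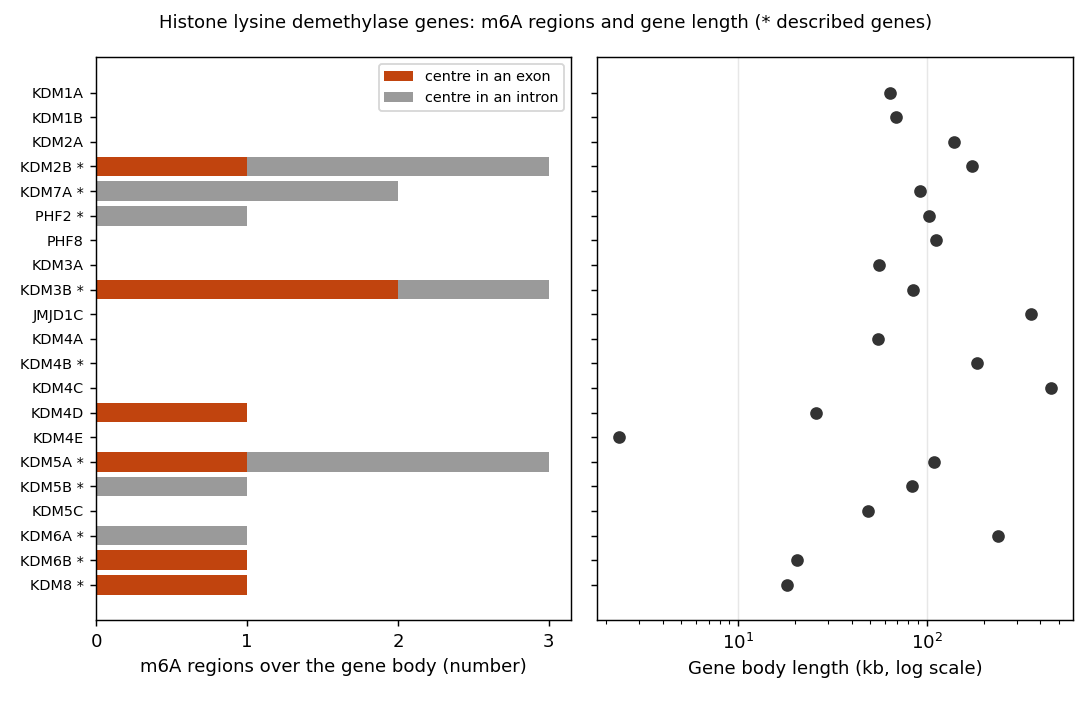
Left, number of m6A regions over the body of each of 21 histone lysine demethylase genes, split by whether the centre lies in an exon; right, gene body length in kb (log axis). Asterisks mark the described genes; 10 of 21 genes have a region, KDM4D is the only one without an asterisk that does, and KDM4B has an asterisk and no region.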

How the data were processed

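m6A-seq of H1 cells gave 2 input and 2 pull-down libraries, grouped by their titles. The submitters' processing notes name HOMER, bedtools 2.30.0, MACS2 2.2.7.1, SAMtools 1.6, HISAT2 2.2.1 and Trim Galore 0.6.7, with hg38. Settings, the handling of reads with several alignments and what was intersected are not given in the sources used here, so their effect on region widths is unknown. The deposited values are coordinates and distances in base pairs, other than any count, signal or fold, and the score was 0 in every line.

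A region's feature is the one HOMER gave its centre; exonic means a coding, UTR or non-coding exon. Transcripts were matched to a RefSeq table of GRCh38.p14 (8523 of 8585, 99.3%), and overlap with a gene body meant at least 1 bp. Strand came from RefSeq start windows (15843 of 20056 protein-coding genes; all 10 described genes), whose sequences matched as reverse complements in 2770 of 2770 overlapping pairs of opposite strand. Positions and overlaps were computed with pandas 2.3.3 and tested on simulated regions (200 of 200 recovered). No statistical test was run. The described genes, gene lists and comparisons were chosen with earlier results of these data known; every described gene and region is named, and of listed genes mainly those with a region. The start windows, microRNAs, repeats, intron order and nearest-start names were looked at after the data were seen. Y-linked paralogs were left out.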

Additional observations from a re-analysis of the deposited data

How the results depend on the processing

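No paired analysis was possible because the deposited files hold 1 intersected set of regions and no value per library; for the same reason no replicate could be left out, and a stricter set by caller score was not run because the score is 0 throughout. Of 20 alternatives over 7 results, 16 stayed close to the reported value and 4 moved. Close was a loose label. Counts had to stay within a set fold change, and medians within an interval that took the 16 regions as separate, although some share a gene. It thus held a median width of 997.5 bp with exonic regions only, against 1434 bp. It also held 7 genes with a region over the body, against 9, with regions up to 2000 bp only. The number of described genes with an exonic region (5) was 3 with regions of at least 1000 bp only, which leaves out the narrow exonic regions of KDM2B and KDM8, and 9 when overlap of the gene body was enough, which counts intronic regions. By nearest start site it was 4, but this counts KDM4B and PHF2 for regions outside their genes. The number of other demethylase and JmjC genes with an exonic region (3 of 22, KDM4D, RIOX1 and JARID2) was 6 when overlap of the gene body was enough. These were 13.6% and 27.3% of the 22 genes, near the 12.8% and 30.2% of all protein-coding genes. The described genes had been taken out for having regions, so nothing is read from these shares. The 16 regions became 9 with regions up to 2000 bp only, which removes all regions of KDM5A and KDM5B and the intronic ones of KDM2B and KDM3B. The median position stayed between 77.7 and 79.4% of gene length. Exon overlap beyond the centre, distance to the stop codon and sequence motifs within regions were not analysed here, since they need transcript models or a genome.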

Other observations

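Protein partners of the demethylases were looked at in 3 lists, beside a background of 30.2% of all protein-coding genes with a region over the gene body and 12.8% with one in an exon. Of 10 genes listed here as partners of KDM2B in PRC1.1, 6 met a region over the gene body and 3 held one in an exon. These were BCORL1 (exon 3 of 13), the ubiquitin ligase RING1 (exon 6 of 7) and CBX8 (exon 5 of 5). Whether each listed gene, CBX8 included, belongs to PRC1.1 in these cells was not examined. PCGF1, which defines this complex, met none, and RYBP held a 47088 bp region in intron 1 of 3. Of 9 partners of KDM6A in the COMPASS-like complex, 6 met a region and 3 held exonic ones, the methyltransferases KMT2C and KMT2D and the coactivator NCOA6, with 2 each. Of the core subunits shared with other complexes, WDR5 held a region in intron 11 of 12, and ASH2L, RBBP5 and DPY30 met none. Of 11 partners of KDM1A in the CoREST complex, 5 met a region and 1 held it in an exon (9.09%). This was PHF21A (exon 18 of 20), a reader of unmethylated lysine 4 of histone H3. HDAC1 and HDAC2, the deacetylases of that complex, met none. The 3 lists are short and were chosen with earlier results of these data known, so nothing is read from their shares.

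JmjC oxygenases that are not classed as KDM enzymes met regions in 5 of 11 cases, against 30.2% of all protein-coding genes. JARID2, a catalytically inactive relative of KDM5 that belongs to the Polycomb complex PRC2, held 1287 bp in exon 7 of 18 and 3629 bp in intron 6 of 17, centred 90.8 and 88.1% along the gene. RIOX1, a ribosomal oxygenase with a single exon, held 1417 bp in that exon. TYW5 and JMJD7 held intronic regions centred on an AluSz and a MER52A element, and the region over JMJD4 was centred in a promoter of SNAP47. HR, RIOX2, JMJD6, JMJD8, HIF1AN and HSPBAP1 met none.

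Across the 14 RefSeq start windows of the described genes, GC content had a median of 67% (range 53 to 84%) and CpG dinucleotides a median of 29.5 per 300-base window (range 2 to 56). All 22199 windows of protein-coding genes had medians of 62.3% and 21.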
